A study of Mus musculus with 24 samples.

Results

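Myc, Spi1, Kit, Gata2, Runx1, Fli1 and Etv6 encode 6 transcription factors and 1 receptor that act in blood progenitors and that recur in leukaemia. They were followed here as RNAs, through the places at which bound proteins shielded them from nuclease. The 7 genes were chosen by name, with earlier results of these data known. The protein-protected sites (PPSs) that overlapped their gene bodies on the same strand, in mm10 coordinates with GENCODE gene models, were taken as theirs. Of the 21938 protein-coding genes annotated, these 7 held 1583 of the 460777 PPSs of the 3 lists. After sites of 20 to 40 nt, the size that the study set aside as possible ribosome footprints, were left out, 1297 PPSs remained, of which 487, 441 and 369 belonged to day 0, day 2 and day 4. With all lengths kept these numbers were 563, 591 and 429, so that day 2 then lay above day 0.

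The cells were MEL cells, a mouse erythroleukaemia line held near the proerythroblast stage, which mature along the erythroid path in 2% DMSO. Undifferentiated cells (0 days) and cells grown for 2 days or 4 days in DMSO were fixed with formaldehyde, and RNA was digested either with proteins in place (footprinting) or after their removal (structure only), with an RNase for single-stranded RNA (ssRNase) or for double-stranded RNA (dsRNase). The 24 libraries made 12 groups of 2 replicates, which the study calls biological replicates. The sources used here do not say how the cultures were kept apart, so the spread between replicates may be partly technical. All groups came from this 1 transformed line, so each day stands for a culture and not for a sorted stage of normal erythropoiesis.

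Each deposited PPS was named for the RNase and replicate of the calls merged into it, which gave 4 call sets a day and 12 in all. The lists do not give the depth of a library. The number of PPSs per call set ran from 20569 to 89671. The ssRNase set of replicate 2 stood apart in strand, with 66.9% of its PPSs on the plus strand at day 0 and 43.3% at day 4, where the other 10 sets lay between 49.8% and 51.8%. Of the 7 genes, 5 are on the plus strand (Myc, Spi1, Kit, Gata2 and Etv6) and 2 on the minus strand (Runx1 and Fli1), so calls and values that change without that set are given with the results below. Among the genes used to check the cell type, 11 of 12 erythroid markers held an exonic PPS, and their summed exonic coverage on days 0, 2 and 4 came to 131, 254 and 401, in percentage points added over the genes.

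In blood formation, MYC, a basic helix-loop-helix protein that pairs with MAX, drives growth and division and is shut down as erythroblasts mature. PU.1, the product of Spi1, is an ETS-domain factor that favours the myeloid path and opposes GATA1, and Spi1 takes its name from a proviral integration site of Friend-virus erythroleukaemias. FLI1 and ETV6 are ETS factors too, the first an activator that directs the megakaryocyte branch, the second a repressor. RUNX1 is the DNA-binding partner of CBFB in the core-binding factor, GATA2 is the GATA protein of stem and early progenitor cells that GATA1 replaces, and KIT is the receptor of stem cell factor. A PPS in an intron of such a gene may lie on unspliced RNA, and one in an exon on either the precursor or the mature transcript. Which RNA carried a site was not tested.

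The sites below are shown because they are the highest-scoring PPS of the gene on the day named that lay wholly in an intron or in coding sequence. They were read from the GRCm38 (mm10) genome on the strand of the gene, 5′ to 3′, and capitals mark bases that lay inside PPSs of all 3 days.

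Myc, coding sequence, chr15:61989605-61989747, plus strand, day 0, 143 nt, score 14.63, a stretch that codes for part of the basic helix-loop-helix region: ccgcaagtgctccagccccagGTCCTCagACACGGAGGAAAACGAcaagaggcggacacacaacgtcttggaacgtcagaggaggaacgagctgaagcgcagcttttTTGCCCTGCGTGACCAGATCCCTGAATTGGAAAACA
Myc, intron 1, chr15:61986547-61986649, plus strand, day 2, 103 nt, score 53.01: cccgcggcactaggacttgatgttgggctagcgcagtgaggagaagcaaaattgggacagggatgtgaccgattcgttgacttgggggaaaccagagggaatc
Spi1, intron 2, chr2:91100766-91100829, plus strand, day 0, 64 nt, score 25.37: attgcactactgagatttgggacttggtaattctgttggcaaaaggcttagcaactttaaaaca
Spi1, coding sequence of the last exon, chr2:91115132-91115177, plus strand, day 2, 46 nt, score 26.66: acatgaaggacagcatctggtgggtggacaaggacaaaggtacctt
Etv6, intron 2, chr6:134172047-134172123, plus strand, day 0, 77 nt, score 22.75: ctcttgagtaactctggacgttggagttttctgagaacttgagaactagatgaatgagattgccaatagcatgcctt
Fli1, intron 1, chr9:32530107-32530160, minus strand, day 0, 54 nt, score 17.84: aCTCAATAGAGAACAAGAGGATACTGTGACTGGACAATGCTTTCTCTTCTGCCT
Runx1, intron 2, chr16:92823457-92823549, minus strand, day 0, 93 nt, score 59.08: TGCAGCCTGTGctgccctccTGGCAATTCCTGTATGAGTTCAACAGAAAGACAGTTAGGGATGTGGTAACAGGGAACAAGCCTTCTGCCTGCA
Runx1, intron 2, chr16:92777018-92777270, minus strand, day 4, 253 nt, score 62.21: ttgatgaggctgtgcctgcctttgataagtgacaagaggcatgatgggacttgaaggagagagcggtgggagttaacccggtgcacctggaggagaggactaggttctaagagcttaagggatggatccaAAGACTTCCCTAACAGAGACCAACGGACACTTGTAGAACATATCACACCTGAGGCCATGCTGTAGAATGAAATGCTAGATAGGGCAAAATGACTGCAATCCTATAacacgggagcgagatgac

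Of the 93 bases of the Runx1 site near the start of intron 2, 84 were protected on all 3 days, as were 53 of the 54 bases of the Fli1 site and 58 of the 143 bases of the Myc coding site. No base of the Spi1 and Etv6 sites shown, or of the Myc intron 1 site, was protected on all 3 days, although 4 regions elsewhere in Etv6 held a PPS on each day.

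The question was whether protection of these RNAs changed as the cells matured, in exons and in introns separately. Exonic coverage is the percentage of a gene's exonic nucleotides that lay in a PPS, and intronic coverage the same for the rest of the gene body. Each is given per replicate, over both RNases. A merged PPS counts in full for each replicate with a call in it, so equal values in 2 replicates are not independent agreement. With 2 replicates a day the exact two-sided permutation test cannot go below p = 0.333, so no single difference can pass a threshold of 0.05, and a gene is called lower or higher here where both replicates of the later day lay below or above both replicates of day 0. The words rose and fell are used of such calls. A PPS can be called only where a transcript is present, and the RNA levels were not analysed here, so less RNA and less protection cannot be told apart in any of these values.

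Exonic coverage was lower at day 4 than at day 0 in 3 of the 5 genes with a PPS (Myc, Spi1 and Etv6), where 25.4% of the 9550 protein-coding genes with an exonic PPS were lower by the same rule. It was higher in 1 (Fli1), with a background of 30.8%. At day 2 it was lower in 4 (Myc, Spi1, Fli1 and Etv6; background 30.4%) and higher in 0 (background 22.3%). Intronic coverage was lower at day 4 in 4 genes (Myc, Spi1, Runx1 and Etv6; background 24.4% of 7333 genes) and higher in 0 (background 26.9%). At day 2 it was lower in 2 (Spi1 and Etv6; background 18.7%) and higher in 0 (background 26.9%). The genes were chosen with earlier results of these data known, so their counts beside these backgrounds are not those of a blind choice. Among plus-strand genes alone the backgrounds for lower coverage were larger, 29.1% for exons and 30.1% for introns at day 4. Without the ssRNase set of replicate 2, Myc and Spi1 exons at both later days, Etv6 exons at day 4, Fli1 exons at both days, and Myc, Spi1 and Etv6 introns at day 4 kept these calls. Etv6 exons and introns at day 2 and Runx1 introns at day 4 then overlapped with day 0, and Runx1 exons at day 4 became higher. In that setting replicate 2 rests on dsRNase calls alone and replicate 1 on both RNases. The spread within a day then includes the difference between the RNases, so an overlap or a smaller change there cannot decide whether a call is lost.

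Split by enzyme, ssRNase call sets had 0 of the 5 genes lower in exons at day 4 (background 21.4%) and 1 higher (22.2%), and dsRNase sets had 3 lower (17.4%) and 1 higher (27.2%). In introns at day 4 the ssRNase sets had 3 lower (background 27.2%) and 0 higher (17.5%), and the dsRNase sets 2 lower, Spi1 and Etv6 (6.49%), and 1 higher, Fli1 (29.3%). At day 2 the exons were lower in 1 gene with ssRNase (background 16.6%) and in 2 with dsRNase (28.1%), and higher in 0 with either (23.1% and 7.66%). The introns of day 2 were lower in 2 genes with ssRNase (15.8%) and 3 with dsRNase (11%), and higher in 0 with either (24.1% and 6.23%). The dsRNase sets of replicates 1 and 2 held 33777 and 40191 PPSs at day 0, 40730 and 20569 at day 2, and 66586 and 50594 at day 4. The part of set size in the values by enzyme was not tested.

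The median change from day 0 to day 4 over the 5 genes was -3.33 percentage points in exons and -1.17 in introns, and over all genes tested it was 0.0684 and 0. At day 2 the medians were -2.92 and -0.837 for the 5 genes, against -0.203 and 0.0283 for all genes.

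**Figure D1:**
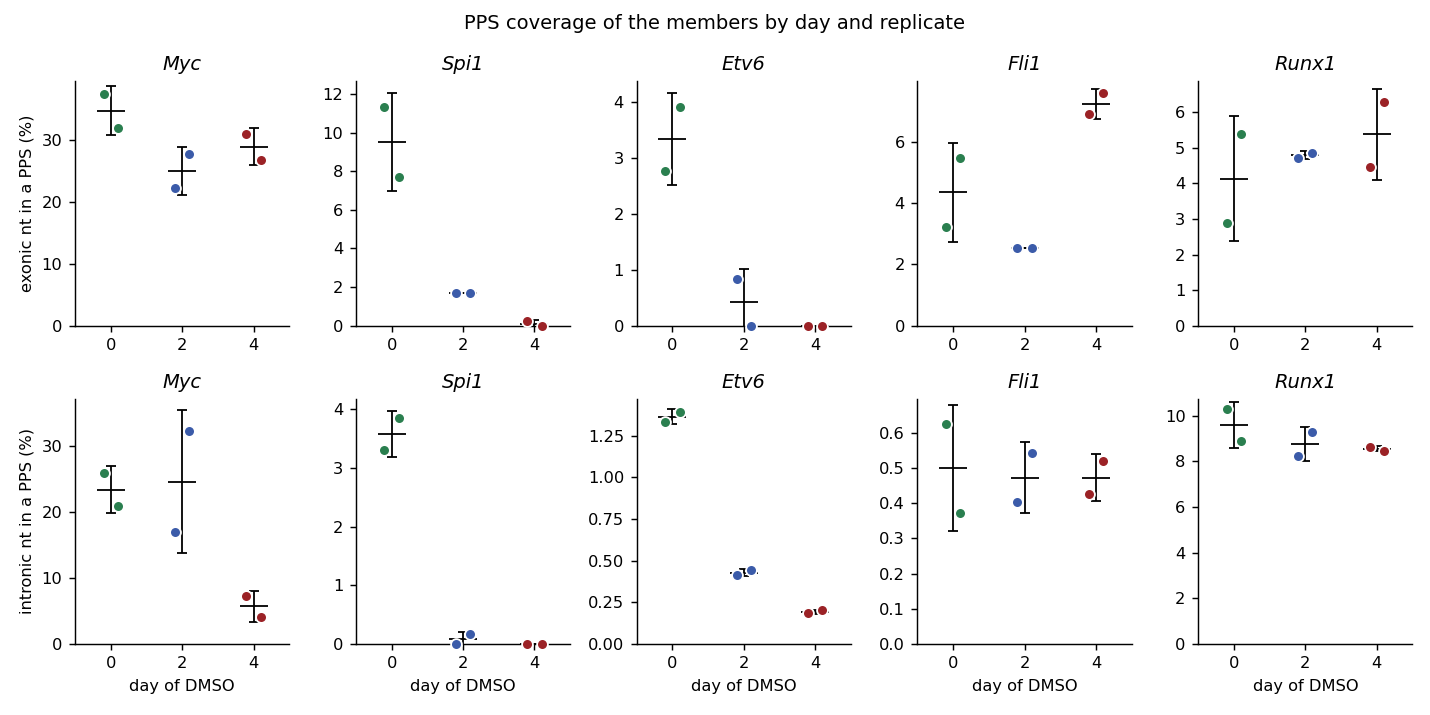
PPS coverage of the 5 genes that held a PPS, with exonic (upper row) and intronic (lower row) coverage in percent of nucleotides on the y axes, which differ between panels, and the day of DMSO on the x axes. Points are the 2 replicates, the horizontal bar is their mean and the error bar the SD (cut at 0). Spi1 and Etv6 fell to 0.111% and 0% of exonic nucleotides at day 4, while Runx1 introns stayed between 8.23% and 10.3% in all 6 replicates.

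Kit (chr5:75574916-75656722) and Gata2 (chr6:88193891-88207032) held no PPS on either strand on any day, with sites of 20 to 40 nt counted. Kit has 8911 exonic and 72896 intronic nt in these models and Gata2 has 5398 and 7744, so neither is a small target. An empty gene in these lists has no site past the authors' false discovery rate of 5%, which gives no limit on protein binding.

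Spi1 (chr2:91082390-91115756, plus strand) lost nearly all of its PPSs. Its PPSs numbered 20, 2 and 1 on days 0, 2 and 4. Exonic coverage was 11.3% and 7.72% in replicates 1 and 2 of day 0, 1.71% in both replicates of day 2, and 0.223% and 0% at day 4. Intronic coverage was 3.31% and 3.86% at day 0, 0% and 0.173% at day 2, and 0% in both replicates of day 4. The replicates of the later days lay below those of day 0 in exons and introns alike, with differences at day 4 of -11.3 to -7.50 percentage points over the 4 pairs of replicates for exons and -3.86 to -3.31 for introns (exact two-sided permutation p = 0.333 for each, the smallest possible).

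The protein-coding part of Spi1 carried most of the exonic signal. In the main transcript (Spi1-201) 27.6% of coding nucleotides lay in a PPS at day 0 on average, 5.64% at day 2 and 0.368% at day 4, and the 3′ UTR held none on any day. Intron 1 (2436 nt), just after the first exon, held 5 PPSs at day 0 and 0 at both later days, and intron 2 (13728 nt) held 12, 1 and 0. The coding site of the last exon printed above was the strongest Spi1 site of day 2, with 3 calls from both replicates and both RNases. The single PPS of day 4 was 6 nt long with the lowest score in the lists (5.4) and came from 1 call. Of 21 regions formed by joining overlapping Spi1 PPSs of the 3 days, 18 were found at day 0 and on no later day, 2 at day 0 and day 2, and 0 on all 3 days.

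The loss was seen with both RNases in introns and with dsRNase in exons. In dsRNase call sets exonic coverage of Spi1 went from 8.14% ± 0.603 (SD, n = 2) at day 0 to 0.111% ± 0.157 at day 4. In ssRNase sets it went from 3.86% ± 5.46 to 0%, where the SD at day 0 reflects 7.72% in replicate 1 and 0% in replicate 2, so these sets overlapped. Intronic coverage did not overlap with either enzyme, at 2.98% ± 1.01 to 0% for ssRNase and 1.12% ± 0.115 to 0% for dsRNase. The dsRNase sets do not contain the set with unequal strands, and without that set the intronic change of Spi1 was -2.25 percentage points at both later days, against -3.50 at day 2 and -3.58 at day 4 with it. Of 8 myeloid markers, Fcgr3 and Prtn3 held an exonic PPS at day 0, summed coverage 8.07 percentage points, and none did at day 2 or day 4. Mpo, Elane, Csf1r, Itgam, Lyz2 and Ctsg were at 0 on all days. Of 7 lymphoid markers, Ptprcap and Lck held PPSs, with a summed coverage of 8.69, 2.82 and 0.186. The part of these markers' cells in the Spi1 values was not tested.

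Etv6 (chr6:134035700-134270158, plus strand) showed a stepwise loss that was largest in number in its long introns. Its PPSs numbered 78, 33 and 11 over the same days. Intronic coverage was 1.33% and 1.40% in the replicates of day 0, 0.413% and 0.442% at day 2, and 0.184% and 0.201% at day 4. The 3 days did not overlap, and the step from day 0 to day 4 was 7.07-fold, a change of -1.17 percentage points (exact two-sided permutation p = 0.333). Without the ssRNase set of replicate 2, which leaves that replicate dsRNase calls alone, the intronic values were 1.33% and 0.203% at day 0, 0.413% and 0% at day 2, and 0.184% and 0.117% at day 4. Day 2 then overlapped with day 0, though each value lay below the day 0 value from the same RNases, and the change at day 4 was -0.617. With PPSs called in both replicates alone that change was -0.353, and with scores of 10 or more it was -0.493. Exonic coverage was 2.76% and 3.91% at day 0, 0.836% and 0% at day 2, and 0% in both replicates of day 4. The exonic change at day 4, -3.33 percentage points, was -1.77 without the ssRNase set of replicate 2 and -1.67 with PPSs called in both replicates alone.

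Within Etv6, intron 1 (101146 nt) held 43, 14 and 8 PPSs on the 3 days and intron 2 (85447 nt) held 27, 18 and 3. Introns 3 and 7 held 3 and 1 at day 0 and none later. Introns 4 to 6 held none on any day. Of the intron 2 sites of day 0, 21 of 27 lay nearer to its start than to its end, as did 14 of 18 at day 2. Mean coding coverage ran from 8.63% through 0.412% to 0%. Of 92 Etv6 regions, 53 were found at day 0 alone and 4 on all days.

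The Etv6 loss in introns from day 0 to day 4 was seen with each RNase, from 1.199% ± 0.158 (SD, n = 2) to 0.0871% ± 0.00371 with ssRNase and from 0.248% ± 0.0641 to 0.106% ± 0.0158 with dsRNase. At day 2 the values were 0.356% ± 0.120 with ssRNase and 0.0915% ± 0.129 with dsRNase. The further step from day 2 to day 4 was therefore seen with ssRNase and not with dsRNase. ssRNase sets held 66 of the 78 PPSs of day 0 and 4 of the 11 of day 4, and dsRNase sets held 20 and 7. The Etv6 sites were thin in support: 17.9% of day 0, 12.1% of day 2 and 36.4% of day 4 PPSs had calls of both replicates, compared with 30.8%, 30.8% and 35.8% of all PPSs in the lists.

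**Figure D2:**
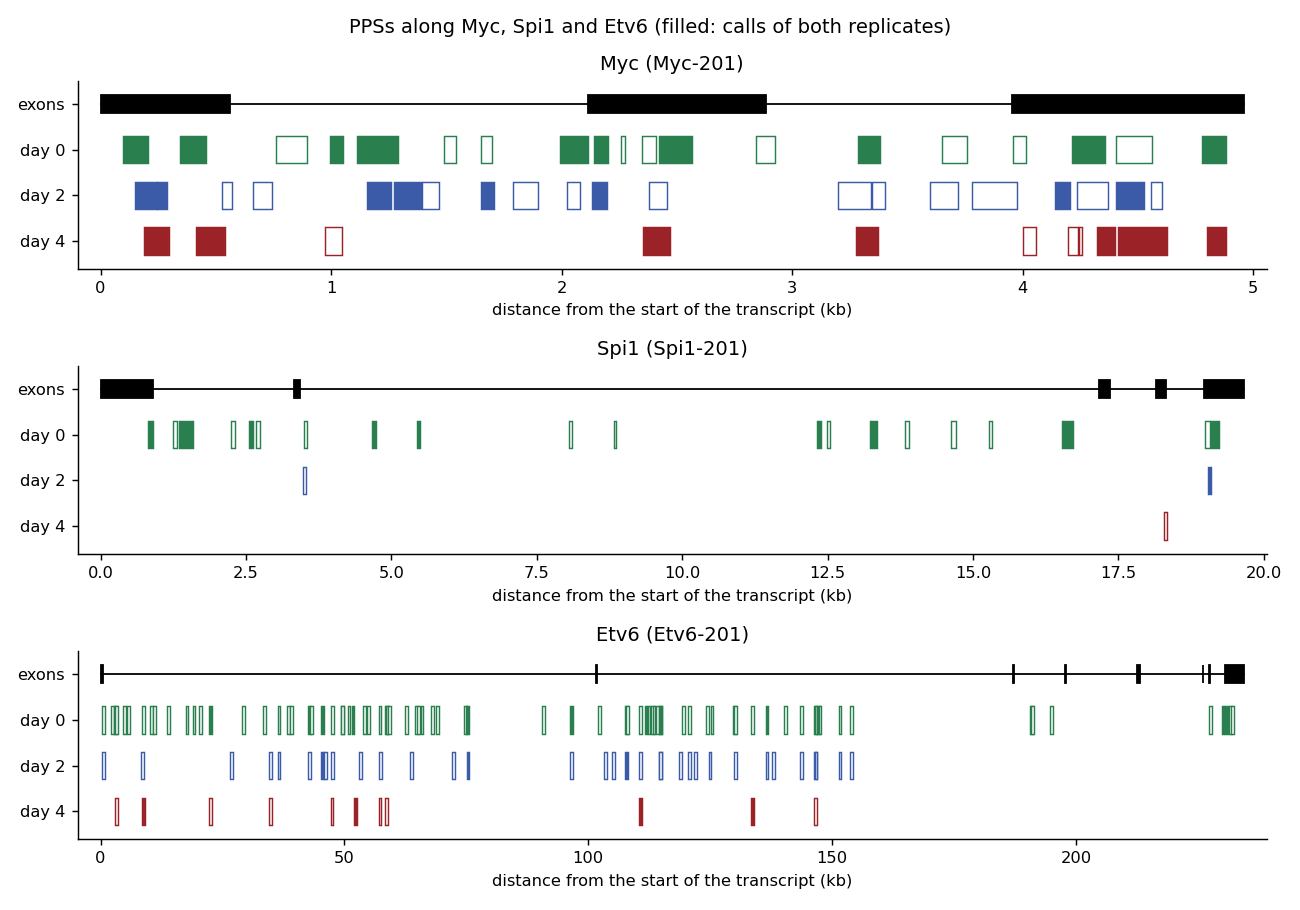
PPSs along the main transcripts of Myc, Spi1 and Etv6, with the distance from the transcript start in kb on the x axis and exons as black blocks. Each box is a PPS of day 0 in green, of day 2 in blue or of day 4 in red, filled where it had calls of both replicates and drawn at a minimum width. Spi1 went from 20 PPSs to 1 and Etv6 from 78 to 11, while Myc kept exonic PPSs on each day but had 2 intronic PPSs at day 4 against 9 at day 0.

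Myc (chr15:61985391-61990374, plus strand) had the densest exonic coverage of the 7 genes on each day. Its exonic coverage was 37.5% and 32.0% in the replicates of day 0, 22.2% and 27.8% at day 2, and 31.0% and 26.8% at day 4. The mean of 34.7% at day 0 was at the 98.7th percentile of genes with an exonic PPS, and that of 28.9% at day 4 at the 97.0th. Both later days lay below day 0, by 1.39-fold and 1.203-fold (exact two-sided permutation p = 0.333 for each), and the day 2 and day 4 replicates overlapped. The day 4 call rested on the choice of exons and of scores. In the exons of the main transcript alone the replicates were 38.2% and 33.7% at day 0. They were 36.0% and 31.1% at day 4, which overlapped, and the change was -2.35 percentage points instead of -5.87. It was -1.10 with PPSs called in both replicates alone. With scores of 10 or more it was -3.31, and Myc was no longer among the members called lower at day 4.

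Myc introns behaved otherwise. Intronic coverage was 26.0% and 20.9% at day 0, 16.9% and 32.4% at day 2, and 7.32% and 4.06% at day 4, a 4.12-fold fall at day 4 (exact two-sided permutation p = 0.333) with overlapping replicates at day 2. The change at day 4, -17.8 percentage points, was -11.8 without the ssRNase set of replicate 2 and -10.4 with scores of 10 or more. Intron 1 (1555 nt), between the first exon and the exon with the usual start codon, held 6, 8 and 1 PPSs, and intron 2 (1067 nt) held 3, 4 and 1. The intron 1 site printed above was the strongest Myc site of day 2 and had calls of both replicates and both RNases. The difference between the exonic and the intronic change was not tested.

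The exon parts of Myc also differed. The 3′ UTR was covered to 33.9% and 23.4% at day 0, 2.25% and 13.03% at day 2, and 42.9% in both replicates of day 4, so day 2 lay below and day 4 above both replicates of day 0. Coding coverage was 38.0% and 33.7%, then 25.6% and 29.1%, then 31.1% and 22.7%. The 5′ UTR was at 42.2% in both replicates of day 0, 26.7% and 25.6% at day 2, and 42.7% in both of day 4. Equal values here can come from merged sites that both replicates share, and these exon parts have no background over all genes. The strongest Myc site lay in the 3′ UTR at day 0 (score 51.22), in intron 1 at day 2 (53.01) and across the stop codon at day 4 (52.59). Of 21 Myc regions, 7 were found on all days, and 2, in the 5′ UTR and in the coding sequence, had both replicates on each day.

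The 2 RNases disagreed on Myc. In exons, dsRNase sets fell from 29.5% ± 3.49 (SD, n = 2) at day 0 to 11.3% ± 6.30 at day 2 and 21.3% ± 1.69 at day 4, whereas ssRNase sets were at 14.7% ± 5.15, 16.8% ± 2.13 and 15.3% ± 4.50 and overlapped. In introns it was the ssRNase sets that fell, from 19.8% ± 8.76 to 4.06% in both replicates of day 4, and dsRNase sets overlapped at 6.59% ± 3.28 and 5.69% ± 2.31. The exonic fall of Myc therefore rested on dsRNase calls and the intronic fall on ssRNase calls. The difference between the enzymes was not tested.

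**Figure D3:**
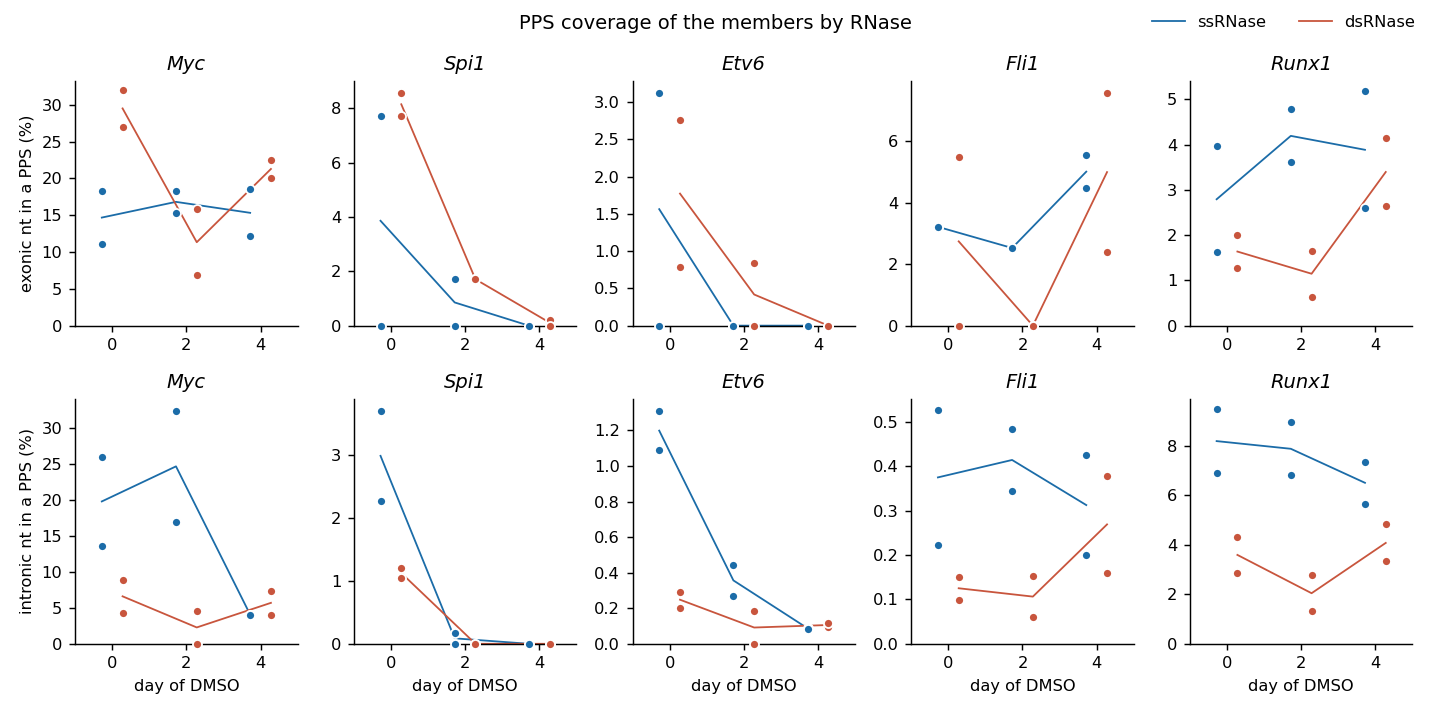
Exonic (upper row) and intronic (lower row) PPS coverage in percent of nucleotides by day of DMSO, separately for call sets of the RNase for single-stranded RNA (ssRNase) and for double-stranded RNA (dsRNase). Points are the 2 replicates and lines join their means, with y axes that differ between panels. Myc exons fell in dsRNase sets from 29.5% to 21.3% at day 4 while its ssRNase sets stayed near 15%, and Spi1 and Etv6 introns fell with both enzymes.

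Fli1 (chr9:32422204-32542861, minus strand) moved in the other direction by day 4. Its exonic coverage was 3.21% and 5.48% in the replicates of day 0, 2.52% in both of day 2, and 6.88% and 7.57% at day 4. Day 4 lay above day 0 in both replicates and day 2 below it (exact two-sided permutation p = 0.333 for each). Minus-strand genes as a whole were higher at day 4 more often, at 36.1%, than plus-strand genes, at 25.7%.

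Coding sequence carried the Fli1 rise, with coverage of 0% in both replicates of day 0, 0.811% in both of day 2, and 10.4% and 6.93% at day 4. The 5′ UTR was covered on each day, at 28.9%, 19.9% and 25.6%, by the strongest Fli1 site of all 3 days, a region of 125 nt at the end of exon 1 (chr9:32541198-32541322) with calls of both replicates each day. ssRNase sets rose from 3.21% in both replicates to 5.01% ± 0.751 (SD, n = 2), and dsRNase sets overlapped at 2.74% ± 3.87 and 4.99% ± 3.65. Introns of Fli1 were sparsely covered, from 0.373% to 0.626% over the 6 replicates, with the days overlapping. Intron 1 (64417 nt) held 16, 14 and 13 PPSs, of which 15 of the 16 of day 0 and 13 of the 14 of day 2 lay nearer to its start than to its end. Of 43 Fli1 regions, 3 were found on all days, 11 at day 0 alone and 21 after induction alone, which pools 9 at day 2 alone and 12 at day 4 alone. Support for single Fli1 sites was thin, with calls of both replicates for 2 of the 22 PPSs of day 0, 3 of the 16 of day 2 and 6 of the 19 of day 4.

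Runx1 (chr16:92601466-92826149, minus strand) held 80.6% of all PPSs of the 7 genes, with 348, 370 and 327 on the 3 days in turn. Intronic coverage was 10.3% and 8.89% in the replicates of day 0, 8.23% and 9.29% at day 2, and 8.63% and 8.47% at day 4. Day 4 lay below day 0 with differences of -1.83 to -0.256 percentage points over the 4 pairs, a 1.12-fold step (exact two-sided permutation p = 0.333), and day 2 overlapped with day 0. With dsRNase calls alone the intronic mean was higher at day 4, 4.07% ± 1.05 against 3.59% ± 1.05 (SD, n = 2), with overlapping replicates. On the 3 days the intronic coverage of Runx1 lay at the 97.5th, 97.5th and 96.8th percentile of genes with an intronic PPS. Without the ssRNase set of replicate 2, the replicates of day 4 (8.63% and 3.33%) overlapped with those of day 0 (10.3% and 4.33%). Replicate 2 then holds dsRNase calls alone, and each value of day 4 lay below the day 0 value from the same RNases.

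The sites crowded into intron 2 (chr16:92695738-92825588), the 129851 nt that part the distal from the proximal promoter of Runx1. This intron makes up 59.3% of the intronic nt of the main transcript and took 285 of the 348 PPSs of day 0, 284 of the 370 of day 2 and 260 of the 327 of day 4. Its density was 2.19, 2.19 and 2.00 PPSs per kb, and the densest of its other introns reached 1.23 per kb, at day 2. Along the intron the sites were not even: 65.3%, 64.4% and 65.0% of them on the 3 days lay nearer to its start than to its end. The 10 kb window with the most held 37 at day 0, from 30 to 40 kb after the start of the intron, and the last, from 120 to 130 kb, held 4, 6 and 2.

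**Figure D4:**
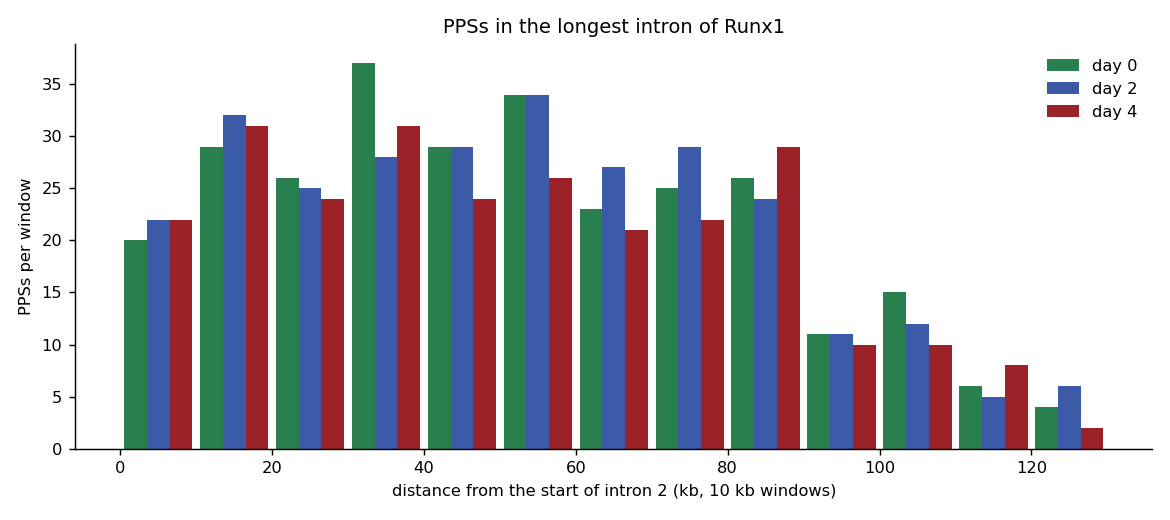
Number of PPSs (y axis) in 10 kb windows along intron 2 of Runx1 (x axis, distance from its start in kb), with bars in green for day 0, in blue for day 2 and in red for day 4. Windows within the first 90 kb held 20 to 37 PPSs on each day and those beyond 90 kb held 2 to 15.

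The introns downstream of intron 2 held fewer sites and moved in different directions. Intron 3 (6351 nt) held 6, 6 and 4 PPSs and intron 7 (7474 nt) 4, 1 and 2. Intron 6 (30393 nt) held 17, 30 and 14 PPSs, intron 5 (24362 nt) 22, 30 and 29, and intron 4 (20163 nt) 8, 14 and 14. Coverage of intron 6 was 2.77% and 2.10% at day 0, 2.49% and 5.12% at day 2, and 1.71% and 1.77% at day 4, so the larger count of day 2 came with 1 of its 2 replicates. That replicate's ssRNase set was also the largest of the 12, with 89671 PPSs.

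Runx1 exons had no clear direction. Exonic coverage was 2.89% and 5.39% at day 0, 4.71% and 4.86% at day 2, and 4.47% and 6.29% at day 4, with overlap at both later days. The dsRNase sets alone were higher at day 4, 3.40% ± 1.08 against 1.64% ± 0.529 (SD, n = 2), on a day when both dsRNase sets also held more PPSs in all. Coding coverage went the other way, from 17.3% and 14.3% at day 0 to 12.8% and 10.3% at day 2 and 9.53% and 9.18% at day 4, and 3′ UTR coverage was 1.503% and 2.60%, then 2.50% and 0.239%, then 5.37% and 3.10%. With the exons of the main transcript alone, the exonic means were lower at day 2 and day 4 than at day 0, by changes of -0.904 and -0.572 percentage points.

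Joining the PPSs of the 7 genes over the 3 days gave 703 regions, of which 168 were found at day 0 alone, 237 after induction alone and 167 on all days, 153 of these in Runx1, which also held 526 of the 703 regions. The 237 pool both later days, with 121 at day 2 alone, 70 at day 4 alone and 46 at both, so they do not compare directly with the 168. The same shares over other genes were not computed, so these counts have no background. The share found on all days was 33.3% in Myc, 29.1% in Runx1, 6.98% in Fli1, 4.35% in Etv6 and 0% in Spi1. With at least 50% of the shorter PPS required to overlap, 157 of 746 regions were found on all days. Regions with calls of both replicates on all 3 days numbered 50, of which 47 lay in Runx1 (46 wholly intronic and 1 across a coding exon), 2 in Myc and 1 in Fli1. Spi1 and Etv6 had 0.

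A feature of the intronic sites that did not enter their choice was base composition. In each of the 5 genes, nucleotides inside intronic PPSs held more G and A and less C and T than the rest of the introns. Intronic PPSs of other genes were not measured, so this is not shown to be particular to these genes. For Runx1 G was 27.6% against 22.7% and C 20.7% against 24.4%, and for Spi1 G was 30.1% against 24.9% and C 19.0% against 24.5%. Repeat-masked bases made up 4.61% of Runx1 intronic PPSs and 21.6% of the rest of its introns, and 3.32% against 26.8% in Spi1. Reads with up to 10 genomic hits were kept by the authors, which bears on repeats, and its part here was not tested. The same stretches were counted once for each day on which they held a PPS, and the shares have no test.

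The genes around these 7 were taken from lists of pathway members. Beside each list's count of exons lower or higher at day 4 stand the same backgrounds of 25.4% lower and 30.8% higher. Of the MYC network, 12 of 14 genes held an exonic PPS, 2 lower and 5 higher, with a median change of 0.187 percentage points. The largest changes included 2 genes of MAD proteins, which compete with MYC for MAX: Mxd4 had 0% in both replicates of day 0 and 24.7% and 25.4% at day 4, and Mxd1 had 0% and then 12.1% and 9.84%. The related Mxd3 was at 0% on both days, and Mxi1 was at 1.64% and 1.36% and then 0.997% and 1.70%, which overlapped. Mycbp2, a ubiquitin ligase named for binding MYC, rose from 7.92% and 8.10% to 19.98% and 18.3%. Max itself was at 10.4% and 12.1% at day 0 and 10.5% and 2.00% at day 4, which overlapped.

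Of the GATA and SCL complex, which includes GATA1 and works in erythroid genes, 10 of 11 genes held a PPS, 2 lower and 4 higher (median change 2.43). Tal1, the SCL factor, rose from 12.4% and 21.4% to 56.6% and 42.2%, and Zfpm1, the GATA1 cofactor FOG1, from 11.3% and 15.8% to 26.8% and 27.9%. Lmo2, the bridging subunit, fell from 31.6% and 36.7% to 16.2% and 13.6%. Gata2, listed with the 7 genes, had no PPS, and Gata1 was at 7.96% and 7.38% at day 0 and 16.2% and 5.58% at day 4, which overlapped.

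Of the RUNX and ETO partners, 9 of 11 held a PPS, 2 lower and 4 higher (median change 0.462). The 3 that moved furthest were members of corepressor complexes: Ncor1 rose from 4.46% and 5.03% to 14.4% and 14.9%, Sin3a from 10.6% and 7.97% to 19.2% and 15.4%, and the deacetylase Hdac3 from 1.18% and 1.13% to 11.8% and 4.56%. Of the other ETS factors, 11 of 15 held a PPS, 2 lower and 2 higher (median change 0.342). Elf1 fell from 7.26% and 7.23% to 1.31% and 1.01%, Elk1 rose from 0.873% and 0% to 9.14% and 6.26%, and Elk4 was at 14.9% and 16.8% at day 0 and 23.2% and 16.6% at day 4, which overlapped.

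KIT had no PPS, but 14 of 15 genes of its signalling did, 7 lower and 5 higher (median change -0.250). Ptpn6, which encodes the phosphatase SHP-1 that dampens the receptor's signal, fell from 14.5% and 13.7% to 3.93% and 1.96%. Jak2, the kinase of the erythropoietin receptor as well, rose from 13.7% and 19.5% to 26.8% and 20.9%, and Ptpn11, for the phosphatase SHP-2, from 5.46% and 5.42% to 8.50% and 13.7%. Of the other progenitor and leukaemia genes, 10 of 16 held a PPS, 4 lower and 1 higher (median change -0.925). Bcl11a, a repressor of fetal globin genes, fell from 27.9% and 28.5% to 2.82% and 1.26%, Myb, which keeps progenitors cycling, from 15.0% and 10.8% to 1.93% and 0%, and the lymphoid factor Ikzf1 from 13.1% and 13.2% to 5.37% and 5.45%.

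**Figure D5:**
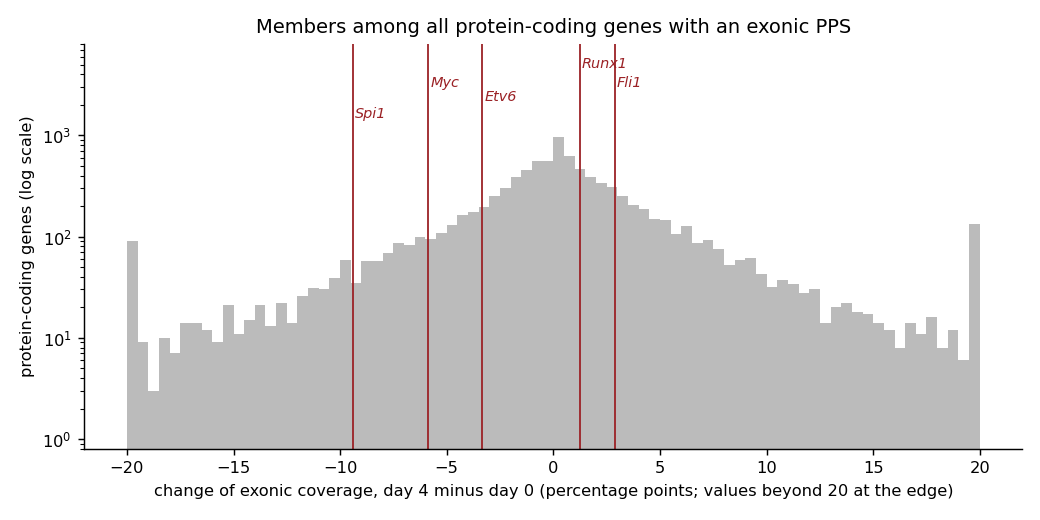
Exonic coverage of day 4 minus that of day 0 in percentage points (x axis, values beyond 20 gathered at the edge) for the 9550 protein-coding genes with an exonic PPS (grey bars, number of genes on a log scale), with the 5 members that held a PPS marked by lines. Spi1, Myc and Etv6 lie below 0, at -9.41, -5.87 and -3.33, and Runx1 and Fli1 above it, at 1.24 and 2.88.

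Over the 12 call sets, the genes whose exonic coverage ran most like that of each member were sought among 7255 genes, by Pearson's r as a description. Call sets of a day share merged sites, and those of a replicate share its culture. The pairs closest to Spi1 were Myo1g (r = 0.98) and Cd200r4 (r = 0.97), both at 0% on both later days. For Etv6 they were Aldh1l2 (r = 0.96) and Nol12 (r = 0.92), again at 0% after day 0. These partners of Spi1 and Etv6 lay above 0% in the 4 call sets of day 0 at most. Their highest values were 2.53%, 2.79%, 1.51% and 2.66% in turn, so their r rests on a few low values. For Myc they were Srp54c (r = 0.95) and Inip (r = 0.91), for Fli1 Eid1 (r = 0.94) and Cdk13 (r = 0.87), and for Runx1 Riok3 (r = 0.92) and L1cam (r = 0.88).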

How the data were processed

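PIP-seq libraries of MEL cells were trimmed with cutadapt 1.2.1 and aligned to mm10 with TopHat2 2.0.10 by the authors, who collapsed duplicates. They called PPSs per RNase and replicate with a modified CSAR (Poisson test of footprinting against structure-only coverage, false discovery rate 5%) and merged the calls into 1 list per day. The deposited score is the authors' enrichment value, and its scaling between libraries is not given in the sources used here. Start and end positions were used as deposited. PPSs of 20 to 40 nt were left out.

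Coverage of exons (union of GENCODE M21 transcripts, GRCm38) and of introns was computed per replicate from PPSs with at least 1 call of it (Python 3.11.15, pandas 2.3.3, numpy 2.4.6). Merged coordinates are shared between replicates, so their spread is understated. Genes were compared by overlap of replicates and the exact two-sided permutation test. The count of covered nucleotides matched a direct count in 200 genes, and sites planted in 200 genes were all recovered. The rule for lower and higher was not tested on simulated data. All 7 genes were named, with 3 genes per list by largest change and 2 per member by likeness. The members and lists were chosen with earlier results of these data known.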

Additional observations from a re-analysis of the deposited data

Results flagged for a closer look

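In the gene body of Spi1, PPSs on the strand opposite to the gene numbered 2 at day 0, 10 at day 2 and 7 at day 4, sites of 20 to 40 nt left out. They were singled out because they are a signal outside the comparisons of the report that was above its day 0 number after induction. The sites lay at chr2:91084236-91087157 on the minus strand, within the part of the gene body that belongs to an upstream transcript start and 8938 nt before the start of the main transcript Spi1-201, where 0 genes are annotated on that strand. The highest scores were 5.4 at day 0, 40.4 at day 2 and 27.5 at day 4, and 0, 3 and 5 of the sites had calls of both replicates. Without the ssRNase calls of replicate 2, the set with unequal strands, the numbers were 2, 4 and 6. The difference between days was not tested.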

How the results depend on the processing

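No paired analysis was possible because the results come from no model, and no label ties replicates across days. Over 13 alternatives, Spi1 and Etv6 exonic and intronic changes, Fli1 exonic changes and the Myc intronic change at day 4 kept their sign. Myc exonic changes reversed with ssRNase calls alone, to 2.13 at day 2 and 0.644 at day 4, and the Runx1 intronic change at day 4 with dsRNase calls alone, to 0.485. The counts of members called lower in exons became 1 at day 2 and 0 at day 4 with ssRNase calls, and 2 at day 2 with dsRNase calls, which made the counts for introns at day 4 2 lower and 1 higher. With the exons of the main transcript alone, 2 members instead of 3 were lower at day 4, Myc being lost. A score of 10 or more also left 2 members lower in exons at day 4, Myc again being lost. It gave 1 member higher in exons at day 2 and in introns at day 2 and day 4. Without the ssRNase calls of replicate 2, an alternative chosen after seeing the data, 2 were higher in exons at day 4 and 1 lower in introns at day 2, and the PPSs of the members numbered 400, 295 and 313. That alternative leaves replicate 2 with dsRNase calls alone, so its replicates are unlike. PPSs of the members at day 0, day 2 and day 4 numbered 202, 115 and 224 with dsRNase calls, 223, 222 and 198 at a score of 10 or more, 174, 152 and 158 with calls of both replicates, and 563, 591 and 429 with all lengths, where day 2 lay above day 0. Calls of both replicates is a setting that leaves 1 value a day and so no count of members called. With 1 replicate left out at a time, the members called higher in exons ranged from 0 to 1 at day 2 and from 1 to 2 at day 4, those higher in introns from 0 to 1 on either day and those lower in introns at day 2 from 2 to 4, and the PPSs from 309 to 352 at day 0 and from 283 to 310 at day 2. The causes were not tested. Read depth is unknown from these lists, RNA level was not analysed here, and 2 replicates allow no p below 0.333.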
